A study of Schizosaccharomyces pombe with 28 samples.

Results

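The genes fio1 (SPAC1F7.08), fip1 (SPAC1F7.07C) and frp1 (SPBC1683.09C) encode the reductive iron uptake system of the fission yeast Schizosaccharomyces pombe. They were taken by their symbols in the probe annotation, 3 genes of the 4929 gene identifiers on the array, each with 2 probes, in 28 arrays. They were chosen because their spread between arrays was already known to be wide, so their levels, means and spread are given as a description, with no test. Each array was a self-self hybridisation: both channels held cDNA from wild-type cells of strain LJY1014 (h- leu1-32), taken at early log phase in rich YES medium, and the labels call the samples independent. The leu1-32 mutation is thus shared by every sample, and all 28 arrays form a single group, named here by the hybridisation number in their titles (1 to 28). The values are log2 ratios of the channels, centred on the median of each array. A ratio carries no absolute level, so marker genes of the cell type could not be checked, and no source used here gives the channel in the numerator. The sign of a value is the one deposited and says nothing of which channel was higher. Sequences of probes, promoters and proteins were not used here.

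In reductive iron uptake, a ferric reductase at the cell surface first converts ferric to ferrous iron, the product of frp1. The multicopper ferroxidase Fio1 then oxidises the iron again as it is passed to the permease Fip1, and the pair works as a single transport complex. fip1 and fio1 are direct neighbours on chromosome I and are read away from each other, whereas frp1 lies on chromosome II. In iron-replete cells the GATA factor Fep1 represses all of them. When iron is scarce they are transcribed, and the factor Php4 represses genes whose products use or store iron.

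The arrays fell into 3 sets of like arrays that no label gives. The sets were found by clustering the arrays on 4888 genes, without fio1, fip1, frp1 and the other iron and copper genes described below. They hold arrays 1 to 8, 19 and 20 (the first set, 10 arrays), arrays 9 to 18 (the second set, 10 arrays) and arrays 21 to 28 (the third set, 8 arrays). Arrays of a set correlated across genes at a median r of 0.657, and arrays of different sets at 0.0391, but the ranges overlapped: the lowest r within a set was 0.0141, and r between sets ran from -0.202 to 0.579. The sets were cut from these data and are not groups of the study, and whether they mark a shared sample, slide batch or day is not given in the sources used here. The typical spread of an array, as the median absolute deviation over probes, ran from 0.115 to 0.209, from 0.114 to 0.187 and from 0.0936 to 0.142 in the 3 sets. No array pair held identical values.

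fio1, the ferroxidase gene, kept to 1 narrow level in each set. In the first set its log2 ratio ran from -1.64 to -1.41 with a median of -1.52, in the second from -2.56 to -2.19 with a median of -2.41, and in the third from 0.49 to 0.83 with a median of 0.70. The sets did not overlap, and the sign was negative in 20 arrays and positive in 8. The set means were -1.51 ± 0.08 (SD, n = 10), -2.40 ± 0.12 (SD, n = 10) and 0.70 ± 0.12 (SD, n = 8). In linear terms the mean ratio was 2.85-fold and 5.28-fold below 1 in the first and second sets and 1.62-fold above 1 in the third. From the second to the third set this is a difference of 3.10 on the log2 scale, or 8.56-fold.

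**Figure D1:**
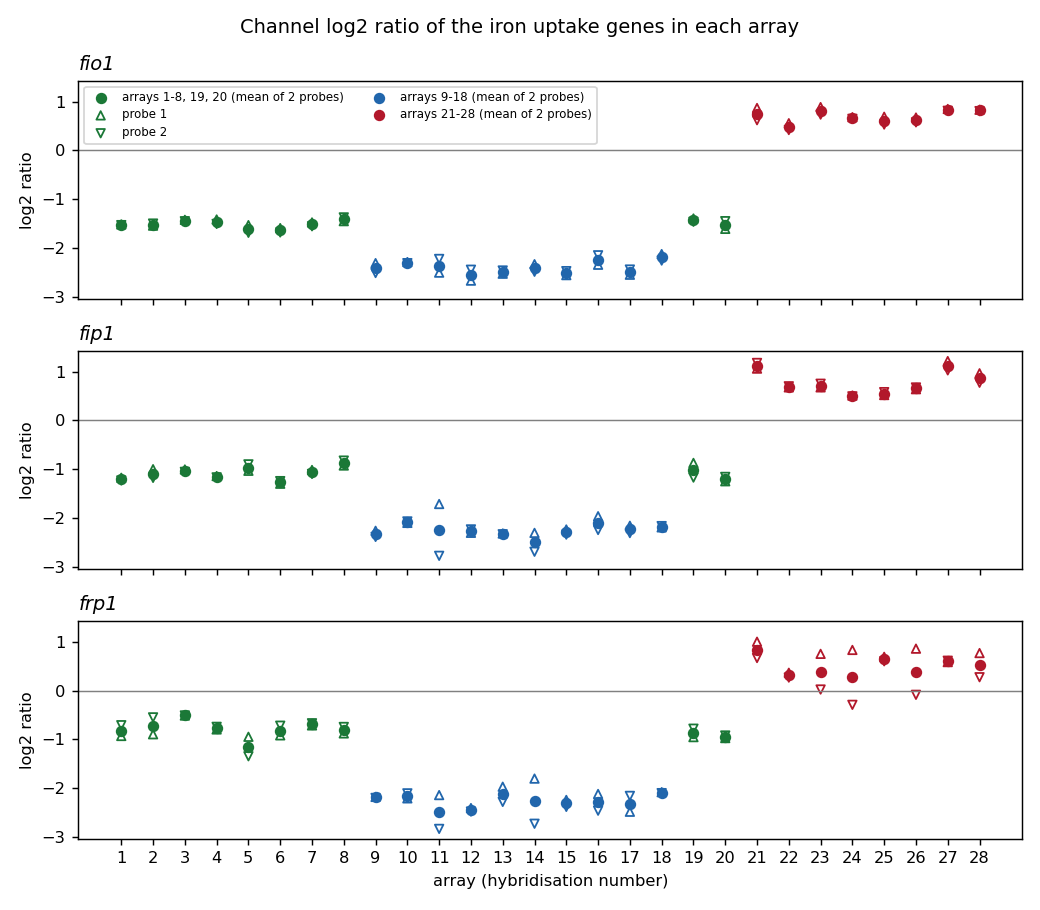
Log2 channel ratio (y axis) of fio1, fip1 and frp1 in each of the 28 arrays (x axis, hybridisation number), with filled points for the mean of 2 probes, open triangles for single probes and colours for the 3 array sets. All 3 genes are lowest in arrays 9 to 18, between these and 0 in arrays 1 to 8, 19 and 20, and above 0 in arrays 21 to 28.

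fip1, the permease gene, followed the same steps. Its log2 ratio ran from -1.27 to -0.87 with a median of -1.07 in the first set, from -2.50 to -2.08 with a median of -2.26 in the second, and from 0.50 to 1.12 with a median of 0.70 in the third. Again no set overlapped another. The set means were -1.09 ± 0.12, -2.25 ± 0.12 and 0.78 ± 0.24 (SD, n = 10, 10 and 8), and the second and the third sets lay 3.03 apart on the log2 scale, or 8.19-fold.

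frp1, the ferric reductase gene, ran from -1.15 to -0.51 with a median of -0.82 in the first set, from -2.49 to -2.09 with a median of -2.28 in the second, and from 0.27 to 0.84 with a median of 0.46 in the third. The set means were -0.81 ± 0.17, -2.27 ± 0.13 and 0.50 ± 0.19 (SD, n = 10, 10 and 8). The sets were apart for this gene too, with 2.76 on the log2 scale, or 6.80-fold, between the second and the third. Each value compares 2 samples, so a step between sets can lie in either channel, and these cannot be told apart. Nor can less RNA per cell be told apart from fewer cells with the transcript.

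Over the whole table such steps were rare. All 3 genes had their lowest values in arrays 9 to 18 and their highest in arrays 21 to 28 with no overlap between sets, as did 7 of 4929 genes in all (0.142%); nothing is read from that share for the 3 genes, which were chosen by these values. The other 4 were str3, a gene of the siderophore-iron transporter family, abc3, a vacuolar ABC transporter gene, SPCC191.03C and pcr1, a bZIP transcription factor gene that was named after its values were seen. No gene showed the opposite order without overlap. pcr1 moved far less, with set means of -0.18, -0.41 and 0.13.

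The place of the 3 genes among all 4929 changed with the set. fio1 had the lowest ratio of the table in 17 of the 20 arrays of the first and second sets, and it ranked among the lowest 5 in all 20. fip1 was also among the lowest 5 in these 20 arrays, whereas frp1 was so in all 10 arrays of the second set but in only 2 of 10 of the first. In the third set fip1 had the highest ratio of all genes in array 21. fio1 ranked between 4 and 26 from the top there, fip1 between 1 and 40, and frp1 between 5 and 396.

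Most of the variation of the 3 genes lay between sets. The share was 99.3% of the variance for fio1, 98.4% for fip1 and 98.1% for frp1, against a median of 43.9% over all genes. Within sets the SD was 0.108 for fio1, 0.163 for fip1 and 0.162 for frp1, where the median gene had 0.124 (quartiles 0.101 and 0.155). Within a set fio1 was thus steadier than the median gene, while fip1 and frp1 lay just above the upper quartile.

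The order of the 3 genes was not the same in every set. In the first set fio1 lay lowest, with no overlap with fip1 or frp1: fip1 was higher by 0.42 ± 0.11 and frp1 by 0.70 ± 0.15 (SD, n = 10), each in 10 of 10 arrays. frp1 exceeded fip1 there by 0.28 ± 0.21, in 9 of 10 arrays, with overlapping ranges. In the second set the 3 genes lay together, fip1 exceeding fio1 by 0.15 ± 0.12 and frp1 exceeding it by 0.13 ± 0.14 (SD, n = 10). In the third set fip1 exceeded fio1 by 0.08 ± 0.19 (SD, n = 8), a gap smaller than its spread, and frp1 differed from fio1 by -0.20 ± 0.19 and from fip1 by -0.28 ± 0.18. The step from the second to the first set therefore had a different size for each gene: 0.89 for fio1, 1.17 for fip1 and 1.46 for frp1, on the log2 scale.

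The 2 probes of a gene gave the same steps but differed in detail. For every one of the 6 probes taken alone, the 3 sets stood in the same order without overlap. The probes of fio1 differed by an average of 0.02 in the first set, -0.04 in the second and 0.11 in the third. Those of frp1 parted most in the third set, where probe 1 averaged 0.73 ± 0.19 and probe 2 averaged 0.26 ± 0.36 (SD, n = 8). With probe 1 alone frp1 thus stood beside probe 1 of fio1 (0.75) in these arrays, and the lower level of frp1 came from probe 2, which reached -0.29 in array 24. In array 11 the probes of fip1 stood at -1.71 and -2.77 and those of frp1 at -2.14 and -2.83.

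The neighbours fio1 and fip1 moved together from set to set, and more loosely within sets. As the sets are far apart, a correlation over all arrays would restate the steps, so it is given within sets, as a description. Pearson's r between fio1 and fip1 was 0.512 in the first set (Spearman's rho 0.612, n = 10), 0.534 in the second (rho 0.527, n = 10) and 0.596 in the third (rho 0.714, n = 8). Without the 2 arrays farthest from the median of fio1, r was -0.0535, 0.303 and 0.582. In the first set these were arrays 6 and 8, and leaving out extremes of fio1 narrows its range, which can itself lower r. Leaving out only array 6 or only array 8 gave 0.283 and 0.335, and leaving out only array 5 gave 0.825. Scaling each array to a common spread raised r to 0.910 in the first set and 0.965 in the second. Scaling multiplies all genes of an array by 1 factor, which moves genes far from 0 together. Single probes gave other values: r in the second set was 0.0503 with probe 1 of both genes and 0.114 with probe 2, and in the first set 0.712 and 0.189. In the third set they gave 0.645 and 0.342, and with no centring r was 0.373. The closeness of the pair within sets thus depended on the processing. With the set means taken off, the 4 pairings of a fio1 probe with a fip1 probe gave r between 0.212 and 0.622 (n = 28). The 2 probes of fio1 gave 0.513 with each other and those of fip1 0.349. By set, the fip1 probes gave 0.532, -0.332 and 0.895, and the fio1 probes 0.459, 0.372 and 0.822 (n = 10, 10 and 8).

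For fio1 and frp1, r was 0.489, 0.417 and 0.367 in the 3 sets (rho 0.442, 0.479 and 0.333, n = 10, 10 and 8). Without the 2 arrays farthest from the median of fio1 it was 0.689, 0.250 and 0.0838. Whether the pairs differ in correlation was not tested. For fip1 and frp1 it was -0.0451, 0.0949 and 0.682 (rho 0.0182, 0.00606 and 0.571), and in the third set it fell to 0.171 without arrays 21 and 27. The 2 probes of frp1 had r = -0.0495 with each other once set means were taken off (n = 28), but the sets differed: r was 0.532 in the first (n = 10), -0.352 in the second (n = 10) and -0.131 in the third (n = 8).

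**Figure D2:**
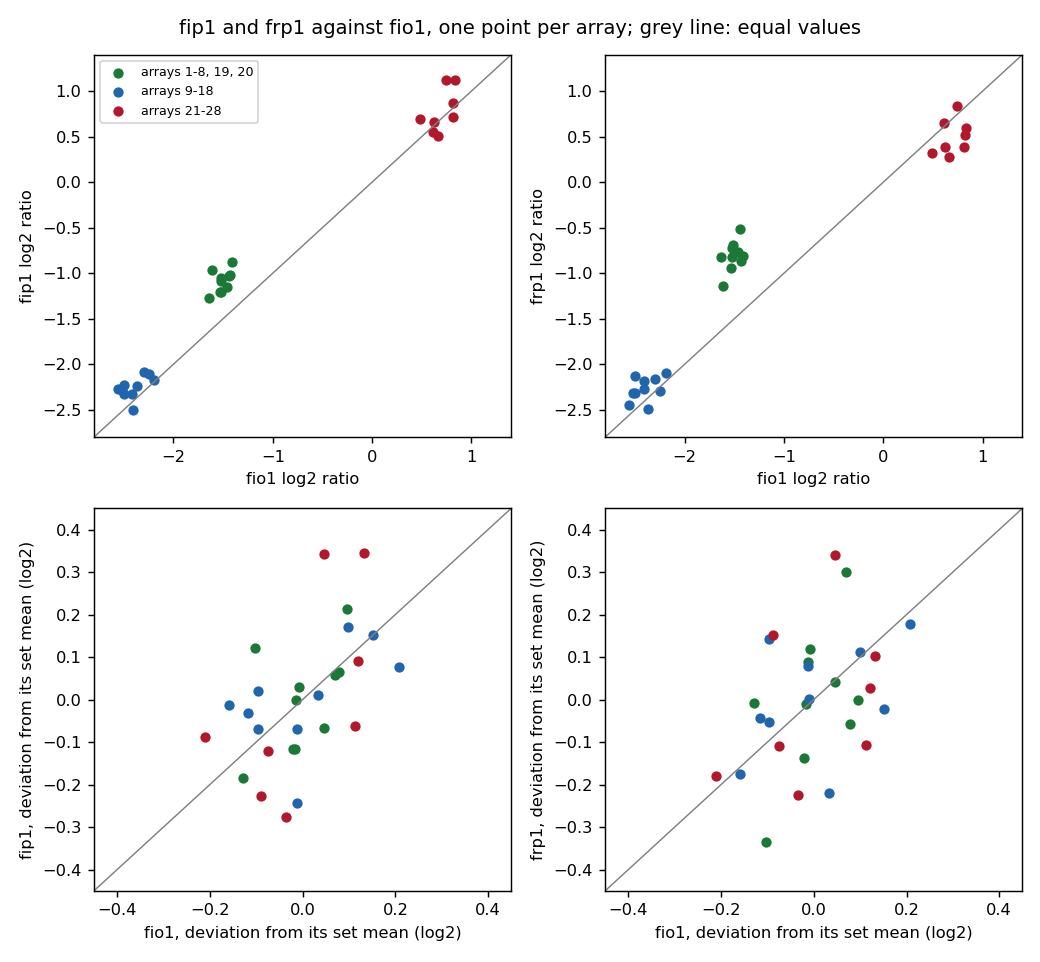
fip1 (left) and frp1 (right) against fio1, 1 point per array coloured by array set, as log2 ratios (top) and as deviations from each set's mean (bottom), with a grey line of equal values. The top panels show 3 separate groups of points, with arrays 1 to 8, 19 and 20 above the line, and the bottom panels show a loose scatter within sets, r = 0.535 for fip1 and 0.401 for frp1 over the 28 arrays.

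With set means taken off, the r of 0.535 between fip1 and fio1 was reached or exceeded by 155 of 4496 other pairs of adjacent protein-coding genes with both members measured (3.45%), and by 50 of the 1217 pairs read away from each other by their systematic names (4.11%). In 27 other adjacent pairs where both genes had an SD of at least 0.3, 6 reached it. These are descriptions of the same 28 arrays.

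The genes on either side of fip1 and fio1 moved far less. On one side, hsp3105 had set means of -0.09, -0.01 and -0.0018 and cdc22, a ribonucleotide reductase gene, -0.23, -0.22 and 0.09. On the other side dal2 had -0.13, -0.16 and 0.08 and SPAC1F7.10 had 0.06, -0.14 and 0.09. The SDs of these 4 ran from 0.138 to 0.200. cdc22 and dal2 followed the mean of fip1 and fio1 at r = 0.766 and 0.719 in these small movements. With set means taken off, their r was -0.114 and 0.192. Beside frp1 on chromosome II, the hexose transporter gene ght4 (SD 0.112) and mal1 (SD 0.116) stayed near 0.

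The other neighbour of frp1 ran the opposite way. pcl1, which encodes a transporter that carries iron into the vacuole, ran from 0.06 to 0.64 with a median of 0.22 in the first set. In the second set it ran from 0.40 to 0.84 with a median of 0.61, and in the third from -0.40 to -0.07 with a median of -0.24. It was thus high where frp1 was low, and the third set did not overlap the others, while the first and second sets overlapped. Its set means were 0.28 ± 0.19, 0.58 ± 0.16 and -0.25 ± 0.11 (SD, n = 10, 10 and 8). Over the 28 arrays its r was -0.893 with frp1 and -0.913 with the mean of fio1 and fip1, the lowest of 4926 genes. With set means taken off, r with frp1 was -0.122. Beyond it, icl1 had set means of -0.31, 0.27 and -0.08.

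**Figure D3:**
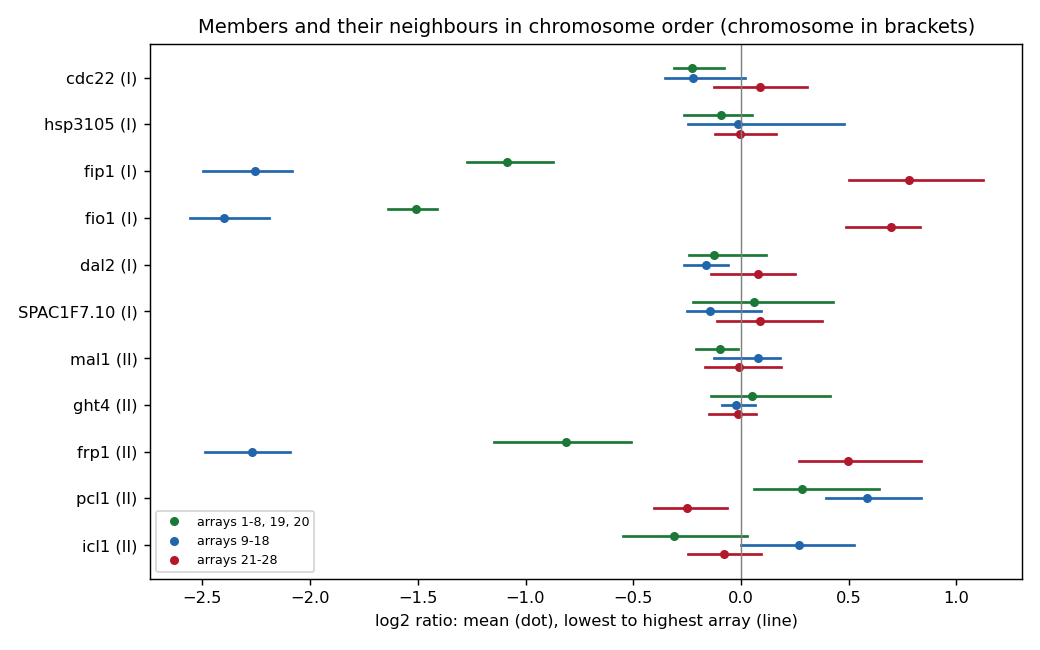
Log2 ratio (x axis) of fip1, fio1, frp1 and the 2 nearest measured neighbours on each side, in chromosome order (y axis), with dots for set means and lines from the lowest to the highest array of each set. The neighbours of fip1 and fio1 lie near 0 in all sets, and pcl1 beside frp1 has its sets in the opposite order to frp1.

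Across all genes, few followed fio1 and fip1 over the 28 arrays. Likeness was measured as Pearson's r with the mean of fio1 and fip1. Apart from frp1, 21 of 4929 genes reached 0.9 (0.426%) and 1 lay at or below -0.9 (0.0203%), pcl1. Since the 3 sets make up nearly all the variation, r mainly ranks genes by their set means. By Spearman's rho 10 genes reached 0.9, and with set means taken off 0 did, with 5 at 0.7 or above. Among genes with an SD of at least 0.3 the closest was str3 (r = 0.959), with set means of -0.63, -1.90 and 0.70. abc3 (r = 0.939) had -0.29, -1.12 and 0.43.

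Of the 12 closest genes with an SD of at least 0.3, several act outside iron transport. The trehalose genes tps1 (r = 0.927), tps3 (0.932) and ntp1 (0.934), of which tps1 encodes trehalose-6-phosphate synthase and ntp1 the neutral trehalase, had set means of -0.27, -0.49 and 0.47, of -0.64, -0.79 and 0.47, and of -0.25, -0.51 and 0.39. The chaperone genes psi1 (0.939), a DnaJ-type co-chaperone, and mcp60 (0.926), the mitochondrial Hsp60, had -0.68, -0.86 and 0.74, and -0.25, -0.31 and 0.38. fhn1 (0.943) and pil1 (0.919), genes of the eisosome at the plasma membrane, had -0.22, -0.45 and 0.52, and -0.18, -0.39 and 0.33. SPCC191.03C (0.944), SPCC63.13 (0.937) and SPAC22F8.05 (0.916) complete the 12, and no role is given for these here. In all of these the second set was lowest and the third highest by their means. The first and second set means lay closest together for psi1, tps3, mcp60, SPCC63.13 (-0.61, -0.81 and 0.06) and SPAC22F8.05 (-0.46, -0.53 and 0.40).

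On the opposite side, genes were again ranked among those with an SD of at least 0.3. The 5 after pcl1 were the4 (r = -0.878), the transporter gene mfs3 (-0.851), vps38 (-0.843), SPBC25B2.08 (-0.838) and SPCC24B10.18 (-0.811). The product of vps38 belongs to a phosphatidylinositol kinase complex. Genes with a smaller SD also lay in this range, among them sdh2 (-0.885), the lowest after pcl1, and leu2 (-0.818). mfs3 had set means of 0.50, 1.24 and -0.14. With set means taken off, the 6 closest to fio1 and fip1 among genes with an SD of at least 0.3 were other ones. They were the ribosomal protein genes rps001 (r = 0.697), rps1001 (0.651) and rpl803 (0.582), the vitamin B6 synthesis gene snz1 (0.685), mrs3 (0.620) and the glutamate dehydrogenase gene gdh1 (0.609). The 5 genes at 0.7 or above had an SD below 0.3. mrs3, whose counterpart in Saccharomyces cerevisiae carries iron into mitochondria, also followed over all arrays (r = 0.885), with set means of -0.11, -0.59 and 0.10.

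The other genes of iron supply were taken from lists chosen with earlier results of these data known. For them the mean ratio over 28 arrays was tested against 0 in limma (two-sided, adjusted p under 0.05 over all genes). This test called 51.9% of the 4929 genes, 23.3% below 0 and 28.6% above, and with no centring the share of calls above 0 moved from 55.1% to 38.8%. It treats the arrays as independent, which the sets contradict, and its p-values measure only the spread between these arrays, which may be technical. With the sets as a random block 1.5% of genes were called, 0.812% below 0 and 0.69% above. The median mean over all genes was 0.01 and the median SD 0.165.

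All 6 genes of siderophore and haem iron acquisition were called below 0, against 23.3% of all genes. Their means had a median of -0.23 and their SDs a median of 0.256, and with the block 0 of 6 were called. For the haem uptake gene shu1 the 2 probes had opposite signs, with means of -0.18 and 0.06, so its sign depended on the probe. str1, the ferrichrome transporter gene, averaged -0.43 (SE 0.17, limma adjusted p = 0.0307, 0.337 with the block). Its set means were 0.13 ± 0.29, -1.60 ± 0.17 and 0.35 ± 0.08 (SD, n = 10, 10 and 8), so it shared the low second set with fio1 but not the low first set. str3 averaged -0.70 (SE 0.20, limma adjusted p = 0.00366, 0.191 with the block). Its 2 probes had means of -0.42 and -0.99, so its level but not its sign depended on the probe. In the first set str3 spread widely, from -1.03 to 0.21, where fio1 ran only from -1.64 to -1.41. The 0.21 was array 19 alone, and the next highest value was -0.41 in array 1. The siderophore synthesis genes sib1 and sib2, which are neighbours, had set means of -0.22, -0.48 and 0.06, and of -0.27, -0.41 and 0.08. str2 and shu1 had SDs of 0.189 and 0.101.

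Of the vacuolar and reductase-like genes, abc3 and frp2 were called below 0 and pcl1 above, with 0 of 3 called with the block. frp2, a further ferric reductase-like gene, had set means of -0.21, -0.24 and -0.21 and so did not share the steps of frp1, and its 2 probes correlated at -0.594. Among 8 iron regulators, php4, tup12 and php5 were called below 0, grx4 above, and 4 did not pass (median of the means -0.04, median SD 0.165). Over all genes 51.9% were called, near the share here. For grx4 the 2 probes disagreed, with means of 0.0012 and 0.29 and r = -0.465, and its value was 0.62 to 0.89 in arrays 1 to 4 and 6 but at most 0.22 elsewhere. The 2 probes of tup12 had means of -0.0049 and -0.10 and r = 0.111, so its call rested mainly on probe 2. With the block 0 of the 8 regulators passed. php4 had set means of -0.01 ± 0.16, -0.55 ± 0.11 and 0.04 ± 0.10 (SD, n = 10, 10 and 8), lowest in the second set. fep1, the gene of the GATA repressor, did not pass (mean -0.03, SE 0.04, limma adjusted p = 0.546), with set means of 0.14, -0.11 and -0.13.

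Copper genes had other steps. Fio1 needs copper, which the transporter pair Ctr4 and Ctr5 takes up. ctr4 had set means of 0.74 ± 0.08, 0.25 ± 0.16 and -0.73 ± 0.12 (SD, n = 10, 10 and 8), and ctr5 0.59, 0.04 and -0.64, highest in the first set and lowest in the third. ctr6, a vacuolar copper transporter gene, had 0.54, -0.09 and -0.20. The test called 51.9% of all genes but only ccc2 of the 6 copper genes. ccc2 was called below 0 (mean -0.16, SE 0.04, limma adjusted p = 0.00101, 0.253 with the block). Its set means were -0.03, -0.40 and -0.0018. In Saccharomyces cerevisiae its counterpart delivers copper to the ferroxidase. atx1 and cuf1 did not pass. The list had a median of the means of 0.03 and a median SD of 0.292.

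Of 15 measured genes of iron-sulphur cluster assembly and iron-using enzymes, 10 were called above 0, 0 below, and 5 did not pass (median of the means 0.12, median SD 0.203). Of all genes 28.6% were called above 0 and 23.3% below. With the block only sdh1 passed, above 0. That fit gives all genes 1 within-set correlation (0.482), whereas 70.7% of the variance of sdh1 lay between sets, so its call may be too lenient. Their r with fio1 and fip1 was below 0 in 11 of 15, with a median of -0.357, against 2706 of the 4926 other genes and a median of -0.0571. The succinate dehydrogenase genes sdh2 (r = -0.885) and sdh1 (-0.748) had set means of 0.09, 0.35 and -0.10, and of 0.23, 0.49 and 0.13. The isopropylmalate dehydratase gene leu2 (-0.818) had 0.18, 0.24 and -0.02, but its 2 probes correlated at only 0.0128. isu1, the scaffold on which clusters are built, did not pass the test (mean -0.16, SE 0.08, limma adjusted p = 0.0836) and ran with the uptake genes instead (r = 0.894), with set means of 0.01 ± 0.09, -0.70 ± 0.09 and 0.30 ± 0.08 (SD, n = 10, 10 and 8).

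**Figure D4:**
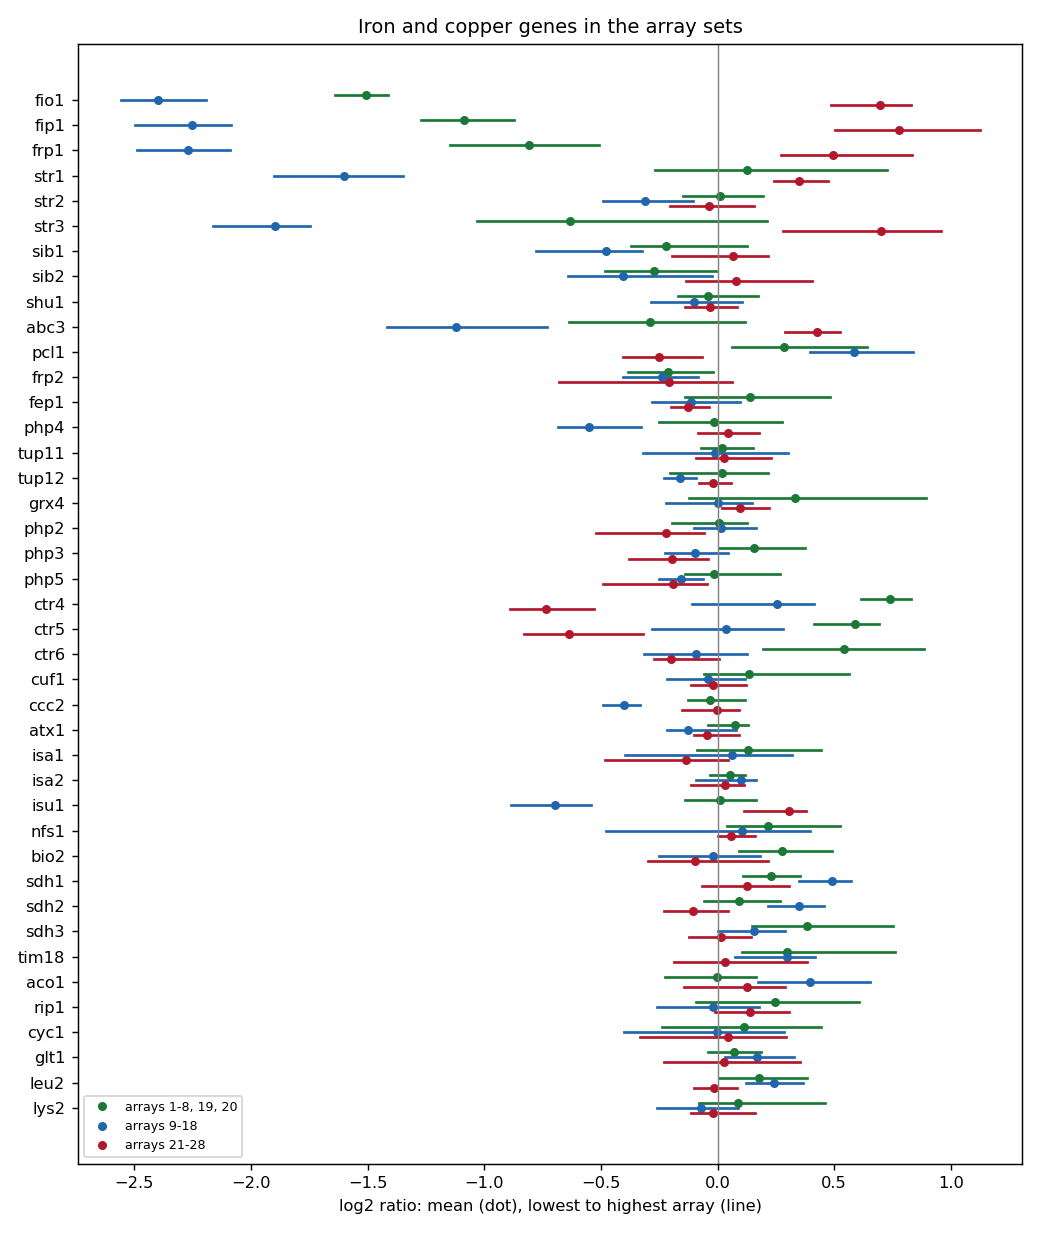
Log2 ratio (x axis) of fio1, fip1, frp1 and the 38 measured genes of the lists (y axis), with dots for set means and lines from the lowest to the highest array of each set. fio1, fip1, frp1, str3 and abc3 have 3 separate levels in the same order, str1, php4 and isu1 are low mainly in arrays 9 to 18, pcl1 runs the opposite way, and ctr4 and ctr5 are highest in arrays 1 to 8, 19 and 20.

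Smaller divisions seen within sets for other genes were weak for fio1 and frp1, and for fip1 in the first set. Arrays 1 to 6 and 19 differed from arrays 7, 8 and 20 by -0.03 for fio1, -0.06 for fip1 and 0.01 for frp1, each with overlapping ranges. Arrays 21, 22, 27 and 28 differed from arrays 23 to 26 by 0.34 for fip1 (0.95 ± 0.21 against 0.61 ± 0.10, SD, n = 4 each), but by only 0.04 for fio1 and 0.15 for frp1, all 3 with overlapping ranges.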

How the data were processed

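The deposited values are medians of log2 ratios, per the labels. They came from GenePix 4000A scans through GenePix Pro 4.0, after background correction and after flagged and dim features had been taken out, per the labels. The table nevertheless holds 0 missing values in 9858 probes, so dim spots cannot be told from it. All 168 values of the 6 probes of fio1, fip1 and frp1 were, as linear ratios, within 0.02 steps of a whole multiple of 0.001. Intensities were not used here, so signal over background is unknown and the number of arrays limits the precision. How the ratios were normalised, which channel is the numerator and whether dyes were swapped is not given in the sources used here.

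Array medians were subtracted, and a gene's value is the mean of its 2 probes. The platform annotation gave 1 gene for 9632 probes, several for 44 and none for 182. Current names, chromosomes and gene order came from the RefSeq gene table of ASM294v3, in which 4791 identifiers were found, and none of its coordinates are used because the files name no build. Arrays were clustered by average linkage on 1 minus Pearson's r and cut at 3 sets, which serve only as possible batches. Means were tested with limma 3.58.1 in R 4.3.3 (lmFit, eBayes with a robust prior, Benjamini-Hochberg adjustment). The test was first tried on simulated independent arrays. These held no array sets, so the trial cannot show its error rate with them. The genes and lists were chosen with earlier results of these data known. Of the list genes 38 were analysed, sdh4 under its current name tim18, and 1 is not reported here. Named genes were list members with an SD of at least 0.3 or in lists of 5 or fewer, the 12 highest and 6 lowest by r with fio1 and fip1 and the 6 highest with set means taken off (SD at least 0.3), and the 2 nearest measured neighbours on each side. Other list members are named to describe their list and were chosen after their values were seen. Alternatives were no centring, scaling, single probes, omission of arrays 25 to 28 or of a set, an ordinary prior, the sets as a block, a minimum mean, Spearman's rho and omission of single arrays.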

Additional observations from a re-analysis of the deposited data

How the results depend on the processing

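The SD moved by over 1.5 times only where a whole set was omitted: to 0.468 for fio1 and 0.611 for fip1 without arrays 21 to 28, and to 0.690 for frp1 without arrays 9 to 18. Means kept their sign under every alternative run, but without arrays 9 to 18 they went from -1.20 to -0.53 for fio1, from -0.97 to -0.26 for fip1 and from -0.96 to -0.23 for frp1, and without arrays 21 to 28 to -1.95, -1.67 and -1.54. Within-set correlations left the 95% interval of the reported r when each array was scaled: fio1 and fip1 had 0.910 in the first set and 0.965 in the second, fio1 and frp1 0.949 in the second, and fip1 and frp1 0.648 in the first and 0.922 in the second. With single probes they were not stable, and fip1 and frp1 in the second set also left that interval with probe 2 alone (0.837). In the 3 sets probe 1 gave fio1 and fip1 0.712, 0.0503 and 0.645 and probe 2 0.189, 0.114 and 0.342. fio1 and frp1 had 0.495, 0.483 and 0.492 with probe 1 and 0.475, -0.128 and 0.0327 with probe 2, and fip1 and frp1 0.221, -0.0813 and 0.0537 with probe 1 and -0.412, 0.837 and 0.675 with probe 2. With no centring fio1 and fip1 had 0.373 in the third set. Leaving out single arrays gave fio1 and fip1 0.283 to 0.825, 0.422 to 0.733 and 0.469 to 0.690 in the 3 sets, fio1 and frp1 0.239 to 0.601, 0.190 to 0.590 and 0.157 to 0.508, and fip1 and frp1 -0.195 to 0.305, -0.0660 to 0.193 and 0.469 to 0.921. The count of genes with r of at least 0.9 was 21. It was 10 by Spearman's rho, 7 with probe 2 alone, 95 without arrays 1 to 8, 19 and 20, 84 without arrays 9 to 18, 37 without arrays 21 to 28, and 0 with set means taken off, an alternative chosen after seeing the data. With 2 sets left, any gene that differs between them can reach a high r. limma called 2559 genes, 74 with the sets as a block (consensus correlation 0.482) and 107 when a minimum absolute mean of 0.3 was also asked. Signal over background is unknown, so its limit on fold changes cannot be given. No paired analysis was possible because all arrays belong to 1 group.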
